A study of Homo sapiens with 10 samples.

Results

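Kruppel-like factors are transcription factors that bind CACCC and GC-rich sites in DNA through zinc fingers at the C-terminal end of the protein. The 10 members described here are KLF2, KLF3, KLF4, KLF5, KLF6, KLF7, KLF9, KLF10, KLF11 and KLF13. They were chosen by name, with earlier results of these data known, and matched by gene symbol among the 36498 genes of the deposited table. RNA came from AsPC-1, a long-established human cell line of pancreatic ductal adenocarcinoma, kept in RPMI medium with pyruvate and antibiotics. Starved cells spent 24 h in glutamine-free RPMI medium with 10% dialysed fetal bovine serum (5 libraries). Control cells spent 24 h in complete RPMI medium, also listed with 10% serum (5 libraries). The labels do not make clear whether the complete medium also held dialysed serum, so a difference in serum cannot be told apart from the lack of glutamine. Both groups come from 1 cell line, and nothing in the labels says that replicates were separate cultures, so p-values measure the spread between these libraries, which may be technical.

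Family members differ outside the zinc fingers and fall into branches. KLF2, KLF4, KLF5, KLF6 and KLF7 act mostly as activators, KLF9, KLF10, KLF11 and KLF13 recruit the SIN3 corepressor, and KLF3 recruits the CTBP corepressors. Several members are induced quickly by serum, growth factors, TGF-beta or stress, and in epithelia KLF4 is tied to differentiation and KLF5 to proliferation.

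The libraries tag transcripts near their 3' ends. Levels are in CPM, which sum to 1000000 in each library and are not scaled by transcript length. Levels are not ranked between genes here. Counts recovered from these values totalled 164008 to 593248 per starved library and 141763 to 474619 per control library, and a single count was worth 1.69 to 7.05 CPM. All 7 epithelial markers had counts, with a summed level of 2640 to 2956 CPM in starved and 12089 to 13128 CPM in control libraries. On average KRT8, KRT18, KRT19 and EPCAM were lower in starved libraries. SOX9 was higher, at 109 CPM in starved and 68.4 CPM in control libraries, and KRT7 was close, at 12.3 and 13.7 CPM. MUC1 had 0 counts over the starved and 1 count over the control libraries. Of the markers of other cell types, 4 of 5 acinar, 2 of 4 matched fibroblast and 1 of 4 endothelial genes were at 0 in all libraries. The endothelial marker VWF had 10 counts over the starved and 2 counts over the control libraries. The 4 leukocyte markers summed to 69.7 to 111 CPM in starved and 37.3 to 54.8 CPM in control libraries, nearly all of it CD68, a lysosomal protein gene that other cells also express. The leukocyte-defining PTPRC had 1 count over the starved and 2 counts over the control libraries. The part of these markers in the results was not tested.

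Starved cells carried more KLF6, KLF7, KLF4, KLF5 and KLF10 transcript, between 3.10-fold and 10.9-fold as ratios of mean CPM. All 10 members had counts, and 9 reached the mean of 5 CPM needed for the test (limma-trend on log2(CPM + 1), two-sided, Benjamini-Hochberg over 11202 genes, threshold 0.05). Of these 9 members 5 rose and 0 fell. Of all tested genes 17.2% rose and 26.1% fell, 43.3% in either direction. No member was lower at an unadjusted p under 0.05 in limma, edgeR or DESeq2 either (0 in each). Both edgeR and DESeq2 called the same number of risers, 5. Of all 11202 tested genes edgeR called 2483 higher and DESeq2 called 2025 higher, and edgeR called 47.8% in either direction. KLF2, KLF3, KLF11 and KLF13 did not pass the test, and KLF9 was too low for it. In the same 5 risers every starved library lay above every control library, against 12.5% of all tested genes, and in 0 members every starved library lay below every control library, against 17.9%. The median log2 change of the 9 members was 1.63, beside -0.22 over all tested genes. Because earlier results were known when the members were chosen, these contrasts with all tested genes are a description. In bulk RNA, more transcript per cell and more cells that carry it cannot be told apart.

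**Figure D1:**
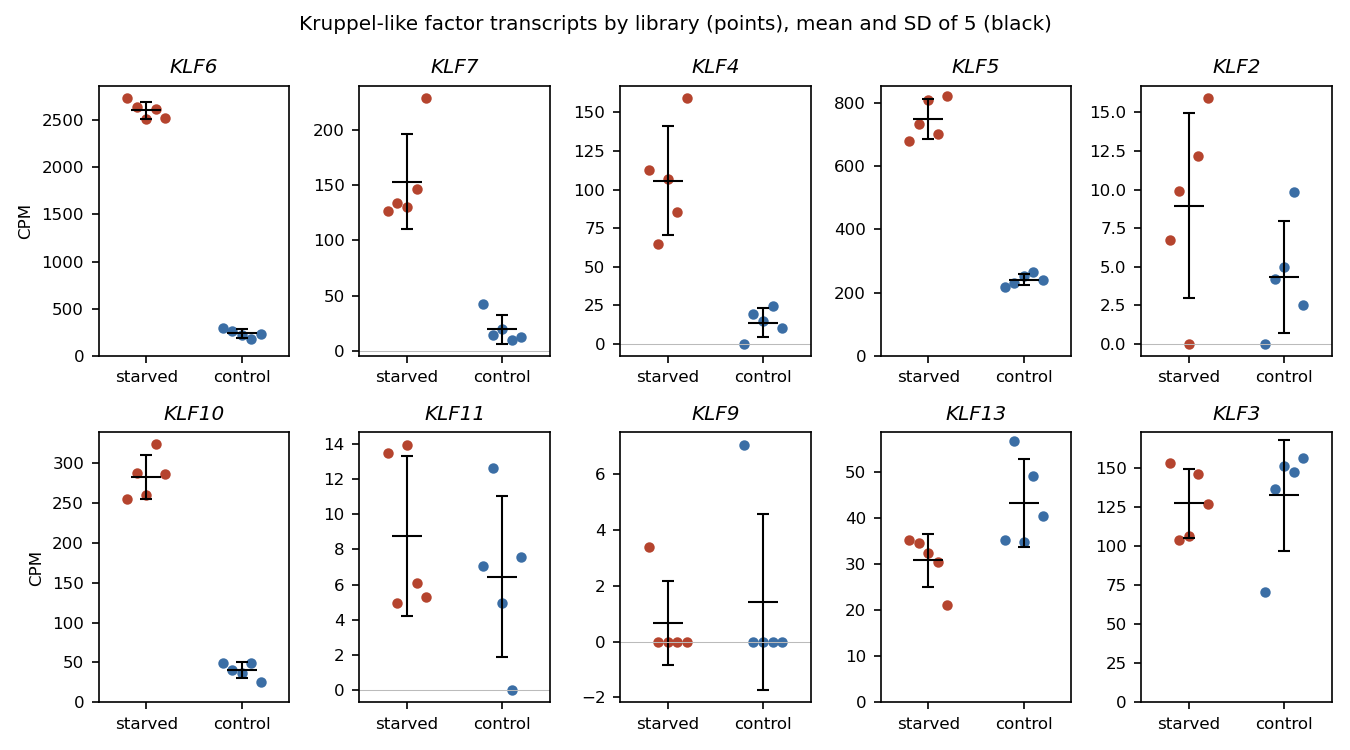
CPM of each Kruppel-like factor (1 panel per gene, linear axes with separate ranges) in the 5 starved and the 5 control libraries. Points are libraries, and black marks are the mean with SD. KLF6, KLF7, KLF4, KLF5 and KLF10 show no overlap between groups, and the other 5 members overlap.

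Among the activating branch, KLF6 changed most by ratio of means. KLF6 (ENSG00000067082.14), an early response gene of injured and growth-stimulated cells, stood at 2732, 2638, 2506, 2616 and 2521 CPM in starved libraries 1 to 5, against 296, 268, 224, 177 and 233 CPM in control libraries 1 to 5. The starved values lie close together and all are several times the highest control value. The means were 2603 ± 92.7 CPM in starved and 239 ± 45.3 CPM in control libraries (SD, n = 5 each), a 10.9-fold difference. The log2 change was 3.46 (SE 0.11, 95% interval 3.22 to 3.69, limma adjusted p = 2.7e-16), which placed KLF6 at rank 140 of the 11202 tested genes ordered from the largest rise. In starved libraries the coefficient of variation of KLF6 was 3.56%, against 4.15% predicted from its counts alone. In control libraries it was 18.9%, against 12.6% predicted.

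KLF7, best known for its role in neurons, stood at 126, 134, 130.2, 146 and 228 CPM in starved libraries, against 42.3, 14.7, 19.9, 9.84 and 12.6 CPM in control libraries. Starved replicate 5 was well above the other starved libraries, and control replicate 1, read from 6 counts, was the highest control value. The means were 153 ± 42.7 CPM in starved and 19.9 ± 13.1 CPM in control libraries, 7.69-fold, with a log2 change of 3.03 (SE 0.32, limma adjusted p = 1.3e-07). Without starved replicate 5 the ratio of means was 6.75, and without control replicate 1 it was 10.7.

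KLF4, an epithelial differentiation factor and one of the reprogramming factors, had 113, 64.5, 107, 85.4 and 159 CPM in starved libraries, against 0, 19.0, 14.9, 24.6 and 10.1 CPM in control libraries. All starved libraries were above all control libraries, though the control levels rest on 24 counts over the group and the starved levels on 147. The means were 106 ± 35.5 CPM in starved and 13.7 ± 9.34 CPM in control libraries, 7.71-fold. The log2 change was 3.38 (SE 0.61, 95% interval 2.11 to 4.65, limma adjusted p = 0.000132). Control replicate 1, the shallowest library, had 0 counts of KLF4. Without it the log2 change was 2.56 (limma adjusted p = 2.4e-06) and the ratio of means 6.17.

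KLF5, a factor of proliferating epithelial cells, had 679, 734, 809, 701 and 823 CPM in starved libraries, against 219, 232, 251, 266 and 240.1 CPM in control libraries. Both groups were tight, with coefficients of variation of 8.54% in starved and 7.45% in control libraries. The means were 749 ± 64.0 CPM in starved and 241 ± 18.0 CPM in control libraries, 3.10-fold, with a log2 change of 1.63 (SE 0.10, 95% interval 1.41 to 1.84, limma adjusted p = 3.9e-11). Of the 5 members that rose KLF5 had the smallest log2 change, and its 95% interval did not reach those of the other 4.

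KLF2, which is known for keeping endothelium and naive T cells quiescent, was read from 11 counts over the starved and 7 counts over the control libraries. Its means were 8.96 ± 6.02 CPM in starved and 4.31 ± 3.63 CPM in control libraries, and 1 library of each group was at 0. The log2 change of 0.80 had a 95% interval of -1.01 to 2.61 (limma adjusted p = 0.481), so that a change was not detectable at this depth. It was 0.29 without control replicate 1 and 1.51 without starved replicate 3, the 2 libraries at 0. With quantile scaling it was 1.68 (95% interval 0.06 to 3.29, limma adjusted p = 0.0861).

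KLF6 and KLF4 have a single start each in the RefSeq promoter table (GRCh38.p14), as does KLF13, which did not pass the test, so the 250 bases before those starts are shown together as a description of members with different outcomes. They are written 5' to 3' on the strand of the gene, with every GGGCGG (the GC box that SP and Kruppel-like factors bind) and every CACGTG (an E-box) on either strand in capitals. The build differs from the hg19 of the deposited values, and reads at 3' ends do not show which start was used. The KLF6 stretch is chr10:3785210-3785459 (minus strand), the KLF4 stretch chr9:107489770-107490019 (minus strand) and the KLF13 stretch chr15:31326585-31326834 (plus strand).
KLF6: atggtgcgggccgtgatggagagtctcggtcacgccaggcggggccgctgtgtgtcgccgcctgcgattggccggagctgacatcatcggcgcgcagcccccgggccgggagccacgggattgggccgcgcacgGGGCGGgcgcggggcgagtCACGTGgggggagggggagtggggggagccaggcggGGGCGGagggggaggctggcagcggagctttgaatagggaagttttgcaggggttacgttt
KLF4: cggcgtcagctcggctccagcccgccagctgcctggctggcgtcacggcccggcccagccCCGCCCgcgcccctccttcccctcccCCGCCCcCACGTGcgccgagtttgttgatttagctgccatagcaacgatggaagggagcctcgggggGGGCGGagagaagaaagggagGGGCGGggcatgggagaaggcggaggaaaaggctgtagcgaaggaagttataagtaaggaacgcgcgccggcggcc
KLF13: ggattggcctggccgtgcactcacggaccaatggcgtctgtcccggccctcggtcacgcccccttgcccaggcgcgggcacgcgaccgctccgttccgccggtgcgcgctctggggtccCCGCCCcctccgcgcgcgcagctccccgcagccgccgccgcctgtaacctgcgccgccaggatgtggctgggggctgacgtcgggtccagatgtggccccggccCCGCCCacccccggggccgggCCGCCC

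The KLF6 and KLF4 stretches hold 1 CACGTG each, 97 and 157 bases before the start, and the KLF13 stretch holds 0. GGGCGG occurs 2 times in KLF6, 4 times in KLF4 and 3 times in KLF13. Over all 35116 promoter entries of the table, cut to the same 250 bases, 6.34% hold CACGTG and 42.6% hold GGGCGG. The Kruppel-like site CACCC, found in 54.7% of entries, was absent from the KLF6 and KLF4 stretches and occurred 1 time in KLF13, where it overlaps a GC box. Of the other members KLF7 has CACGTG at 1 of 4 starts and KLF11 at 1 of 2 starts, and KLF2 (1 start), KLF5 (2 starts) and KLF9 (1 start) have it at 0. TGATGNAA, the core that ATF4 binds together with C/EBP factors, was in 0 of the 13 entries of members and in 3.14% of all entries. The cAMP response element TGACGTCA was in 1 of the 13 member entries, at a KLF11 start, and in 1.65% of all entries. TATAAA was in 1 member entry, at a KLF5 start, and in 10.7% of all entries. The table matched 8 of the 10 members; KLF3 and KLF10 are named only.

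Of the SIN3-recruiting branch 1 member rose. KLF10, first described as a TGF-beta inducible early gene, stood at 255, 288, 260.3, 323 and 287 CPM in starved libraries, against 49.4, 40.0, 37.3, 49.2 and 25.3 CPM in control libraries. The groups are far apart and the starved libraries vary by less than their counts alone predict, with a coefficient of variation of 9.65% against 12.9%. The means were 282 ± 27.3 CPM in starved and 40.2 ± 9.96 CPM in control libraries, 7.02-fold, with a log2 change of 2.81 (SE 0.19, 95% interval 2.42 to 3.21, limma adjusted p = 1.05e-10).

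KLF11, the closest relative of KLF10 and also TGF-beta inducible, was read from 14 counts over the starved and 12 counts over the control libraries. It averaged 8.76 ± 4.55 CPM in starved and 6.45 ± 4.58 CPM in control libraries, with overlapping groups. The log2 change of 0.67 had a 95% interval of -0.90 to 2.24 (limma adjusted p = 0.495). It was 0.049 without control replicate 4, which was at 0, and up to 0.99 without another single library (control replicate 2). The ratio of pooled CPM was 1.39, with an exact binomial (Clopper-Pearson) 95% interval of 0.595 to 3.28 that covers counting error only.

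KLF13, a factor known from lymphocytes and heart, had 35.4, 34.7, 32.5, 30.5 and 21.2 CPM in starved libraries, against 35.3, 56.9, 34.8, 49.2 and 40.4 CPM in control libraries. The groups overlap by a narrow margin, since the highest starved library lies just above the lowest 2 control libraries. The means were 30.9 ± 5.73 CPM in starved and 43.3 ± 9.55 CPM in control libraries, and the log2 change of -0.47 (SE 0.30, 95% interval -1.09 to 0.15) did not pass the test (limma adjusted p = 0.210). An exact permutation test of the mean CPM gave an unadjusted two-sided p of 0.0317. KLF9, which glucocorticoids and thyroid hormone induce in many tissues, had 2 counts over the starved and 1 count over the control libraries, each from replicate 1 of its group. At a floor of 3 counts over a group, which corresponds to 2.20 CPM in starved and 1.85 CPM in control libraries, no difference in KLF9 was detectable (two-sided exact permutation p = 1.0 on mean CPM).

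KLF3, a repressor known from erythroid cells and adipocytes, had 153, 104, 107, 146 and 127 CPM in starved libraries, against 70.5, 137, 152, 148 and 157 CPM in control libraries. The means were 128 ± 22.3 CPM in starved and 133 ± 35.5 CPM in control libraries. Its log2 change of -0.018 had a 95% interval of -0.44 to 0.41 (limma adjusted p = 0.953), which leaves room for a change of up to about that size in either direction. Control replicate 1 was the lowest of all 10 libraries, and without it the log2 change was -0.23 (limma adjusted p = 0.274). Annotated genes that overlap the members had few counts of their own. KLF3-AS1, on the opposite strand to KLF3, had 2 counts over the starved and 0 over the control libraries. KLF7-IT1 and MIR2355, both within KLF7, had 1 and 0 each. The pseudogene KLF3P1, which was matched by its name and not by position, also had 1 count over the starved and 0 over the control libraries.

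**Figure D2:**
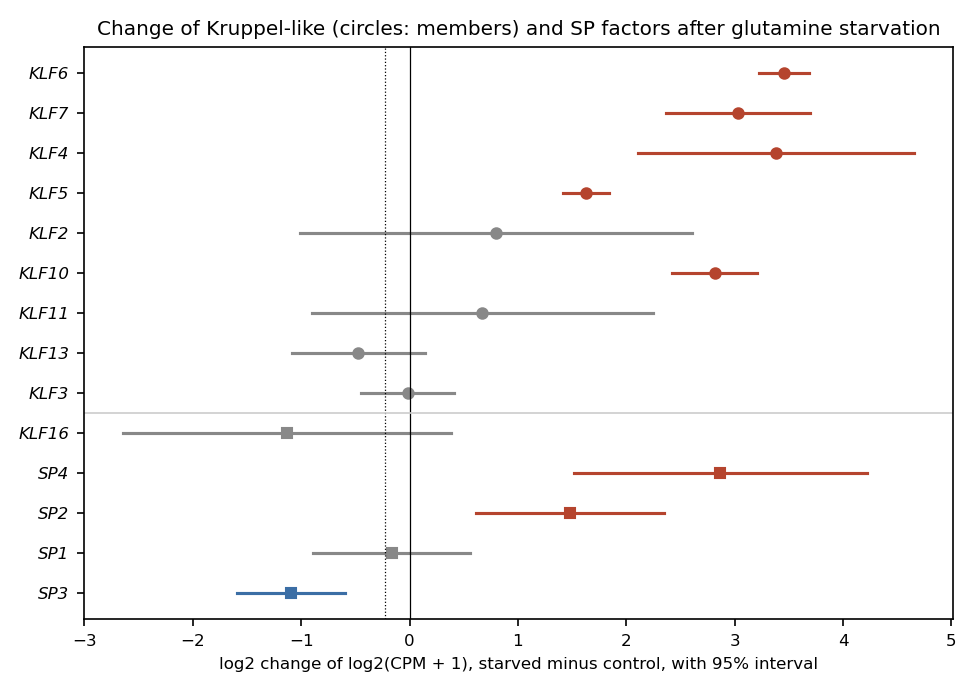
Log2 change (starved minus control) of the tested Kruppel-like factors and SP factors, with 95% intervals from limma; red is called higher, blue called lower and grey not called. The dotted line is the median of all tested genes (-0.22). KLF6, KLF7, KLF4 and KLF10 have intervals wholly above 2, KLF5 lies lower, and SP3 is the 1 factor shown that fell.

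Whether related members changed by different amounts was tested on their log2 ratio within each library, for 5 pairs (two-sided exact permutation tests, Benjamini-Hochberg over the 5 pairs, smallest possible p 0.00794). KLF4 over KLF5 averaged -2.87 ± 0.43 in starved and -4.63 ± 1.81 in control libraries, a difference of 1.75 (exact permutation p = 0.0159, adjusted 0.0397), so that KLF4 rose by more than KLF5. That difference was 0.97 without control replicate 1, where KLF4 was at 0 (adjusted exact permutation p = 0.0529). KLF2 over KLF4 averaged -3.83 ± 1.71 in starved and -1.25 ± 0.75 in control libraries, a difference of -2.58 (exact permutation p = 0.00794, adjusted 0.0397). KLF2 was read from 11 counts over the starved and 7 over the control libraries, with no detectable change of its own. The KLF2 over KLF4 ratio therefore mostly follows KLF4. Control replicate 1 had 0 counts of both genes, so that its ratio is set by the pseudocount, and starved replicate 3 had 0 counts of KLF2. Without starved replicate 3 the difference was -1.86. Both calls pass narrowly. With single libraries left out, where the smallest possible p is 0.0159, the KLF4 over KLF5 call was lost for 8 of the 10 libraries (all but starved replicate 2 and control replicate 4). The KLF2 over KLF4 call was lost for 6 of the 10 (starved replicates 1, 3 and 4 and control replicates 2, 3 and 5). The groups of this ratio do not overlap (starved -6.75 to -2.58, control -1.94 to 0), so each run gave the smallest possible p. Whether the call then passed was set by the other pairs through the adjustment. These losses therefore do not show that KLF2 over KLF4 depends on a single library.

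The other pairs did not pass. KLF6 over KLF7 averaged 4.12 ± 0.38 in starved and 3.69 ± 0.58 in control libraries, and the difference of 0.43 had a 95% interval of -0.25 to 1.23 (exact permutation p = 0.175, adjusted 0.218). Without starved replicate 5, where KLF7 was highest, that difference was 0.59 and passed (adjusted exact permutation p = 0.0397). KLF10 over KLF11 averaged 4.98 ± 0.77 in starved and 2.84 ± 1.66 in control libraries (difference 2.14, exact permutation p = 0.0635, adjusted 0.106), and control replicate 4, with 0 counts of KLF11, had the highest ratio of its group. Without that library the difference was 2.85 and passed (adjusted exact permutation p = 0.0265). KLF9 over KLF13 differed by 0.30 (exact permutation p = 0.635, adjusted 0.635), a ratio that rests on 3 counts of KLF9 in all. It was 0.96 without control replicate 1, the 1 control library with a KLF9 count (adjusted exact permutation p = 0.0397). KLF9 is then at 0 in every library but starved replicate 1, so that this p mostly follows KLF13 and does not compare KLF9 with KLF13. Without starved replicate 1 the difference was -0.077.

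**Figure D3:**
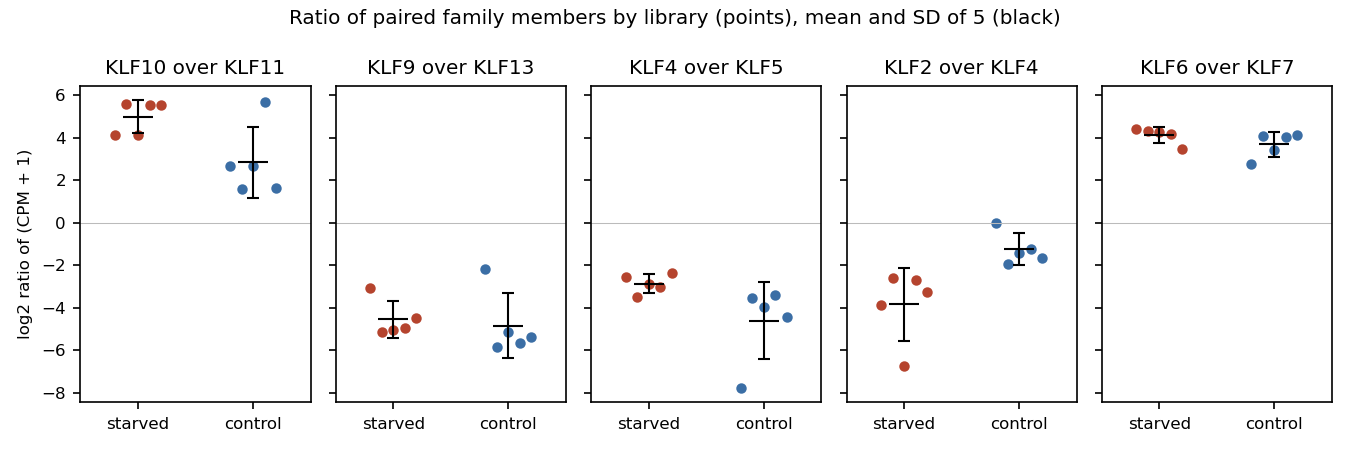
Log2 ratio of (CPM + 1) of 5 pairs of family members in each of the 5 starved and 5 control libraries, with mean and SD in black. KLF4 over KLF5 is higher and KLF2 over KLF4 lower in starved libraries, and the low outlying control point of KLF4 over KLF5 is the library without KLF4 counts.

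Of the 8 other Kruppel-like factors looked for, 7 were matched, 6 had counts and 1 was tested. KLF16 averaged 11.0 ± 8.69 CPM in starved and 16.8 ± 4.90 CPM in control libraries (log2 change -1.13, limma adjusted p = 0.221). KLF12 had 7 counts over the starved and 4 over the control libraries, KLF15 had 4 and 1, KLF14 had 3 and 0, and KLF8 and KLF17 had 1 and 0 each, all too few to compare. SP factors share the zinc finger fold and the GC box with Kruppel-like factors. Of the 7 matched 4 were tested, of which 2 rose and 1 fell, where 17.2% of all tested genes rose and 26.1% fell. SP4 rose to 31.1 ± 8.06 CPM in starved libraries, against 4.85 ± 4.75 CPM in control libraries, and SP2 to 39.9 ± 9.22 CPM against 14.6 ± 5.70 CPM. SP3, an activator or repressor by context, fell to 52.9 ± 19.1 CPM in starved libraries, against 108 ± 7.93 CPM in control libraries (log2 change -1.10, limma adjusted p = 0.000868). SP1 ranged from 21.2 to 86.0 CPM in starved and from 27.3 to 91.7 CPM in control libraries (limma adjusted p = 0.732), and SP6 had 1 count over the starved and 0 over the control libraries.

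Of 10 tested corepressors and coactivators 3 rose and 2 fell, where 17.2% of all tested genes rose and 26.1% fell. The list median log2 change of 0.058 was near 0 and its sign was not stable, at -0.066 without control replicate 1, -0.041 without starved replicate 2 and -0.031 without control replicate 4. The acetyltransferase genes EP300 and CREBBP rose, EP300 to 151 ± 29.3 CPM in starved libraries, against 49.0 ± 10.4 CPM in control libraries. CREBBP averaged 216 ± 34.6 CPM in starved and 139.8 ± 15.5 CPM in control libraries. The deacetylase genes HDAC1 and HDAC2 fell, HDAC1 to 25.9 ± 10.7 CPM in starved libraries, against 149 ± 26.1 CPM in control libraries. HDAC2 averaged 76.4 ± 10.2 CPM in starved and 149.6 ± 24.7 CPM in control libraries. SIN3B also rose (log2 change 1.71, limma adjusted p = 0.00405) and was named after its values were seen, while neither SIN3A nor the CTBP genes passed the test.

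Among 8 tested ubiquitin ligases and deubiquitinases of family members 1 rose and 2 fell, near the 17.2% and 26.1% of all tested genes that rose and fell. The median log2 change was -0.088, but 0.21 without starved replicate 2 and 0.087 with quantile scaling. SMURF1 rose to 864 ± 28.5 CPM in starved libraries, against 448 ± 28.5 CPM in control libraries. WWP1, a ligase that acts on KLF2 and KLF5, fell to 27.6 ± 11.3 CPM in starved libraries, against 71.5 ± 12.6 CPM in control libraries, and SMURF2 fell to 101 ± 25.2 CPM, against 164 ± 34.6 CPM. USP10 averaged 86.7 ± 7.09 CPM in starved and 117 ± 38.8 CPM in control libraries and did not pass the test (limma adjusted p = 0.165), but was called lower without control replicate 5 (limma adjusted p = 0.0319). In the MEK5, ERK5 and MEF2 axis, which drives KLF2 and KLF4 in endothelium, 2 of 5 tested genes rose and 0 fell. Over all tested genes the shares were 17.2% and 26.1%. The median log2 change of -0.077 had no stable sign either, at -0.21 without control replicate 5, 0.068 without control replicate 1 and 0.15 in edgeR. MEF2D rose to 75.1 ± 18.7 CPM in starved libraries, against 14.2 ± 7.47 CPM in control libraries. MEF2A averaged 66.3 ± 27.2 CPM in starved and 35.6 ± 11.1 CPM in control libraries (log2 change 0.83, limma adjusted p = 0.0417), a call lost without any one of starved replicates 2, 3 and 4 or control replicates 1, 2 and 5 (limma adjusted p 0.0561 to 0.131). MAP3K3 and MAP2K5 did not pass (limma adjusted p = 0.0835 and 0.170), though MAP3K3 was called lower without starved replicate 4 (limma adjusted p = 0.0174). MAPK7, the ERK5 gene itself, had 5 counts over the starved and 10 over the control libraries, and MEF2C had 5 and 8. Both were too low for the test and were named after their values were seen.

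TGF-beta induces KLF10 and KLF11. Of 6 tested genes for the TGF-beta ligand, its receptors and SMADs 0 rose and 3 fell, where 17.2% of all tested genes rose and 26.1% fell. The list median log2 change was -0.59, beside -0.22 over all tested genes. A link between these genes and KLF10 or KLF11 was not tested. TGFBR2 fell to 66.6 ± 23.5 CPM in starved libraries, against 172 ± 34.0 CPM in control libraries, and SMAD3 to 90.8 ± 12.4 CPM, against 149.9 ± 24.9 CPM. TGFB1, the ligand gene, fell with 3 counts over the starved and 17 counts over the control libraries (limma adjusted p = 0.0280), a call lost without any one of starved replicates 2 and 5 or control replicates 1, 4 and 5 (limma adjusted p 0.0542 to 0.0793), without control replicates 1 and 2 together (0.0531), with no filter on low genes (0.0867), with quantile scaling (0.116) and in DESeq2 (0.0659). SMAD4 averaged 20.1 ± 5.39 CPM in starved and 27.6 ± 5.20 CPM in control libraries (limma adjusted p = 0.342).

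Glucocorticoid response genes were included because KLF9 is one. Of 5 tested 4 rose and 0 fell, where 17.2% of all tested genes rose and 26.1% fell. The genes that rose include NR3C1, which encodes the receptor itself. Whether glucocorticoid signalling changed was not tested. The median log2 change was 3.49, the value of TSC22D3, and it was 2.00 at a pseudocount of 5 and 1.98 with no filter on low genes. DUSP1, a phosphatase of MAP kinases, rose to 179 ± 37.0 CPM in starved libraries, against 10.9 ± 7.87 CPM in control libraries. PER1, a circadian clock gene, had 114 counts over the starved and 2 counts over the control libraries, and TSC22D3 had 31 and 4. The receptor gene NR3C1 averaged 179 ± 22.2 CPM in starved and 129.6 ± 18.5 CPM in control libraries (limma adjusted p = 0.0195), a call lost without control replicate 5 (limma adjusted p = 0.0648) and with no filter on low genes (0.0679). FKBP5, another induced gene, did not pass the test, with 29.2 ± 12.3 CPM in starved and 34.8 ± 5.62 CPM in control libraries (limma adjusted p = 0.454). FKBP5 was named after its values were seen.

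Of 23 tested genes that have been reported as targets of family members 8 rose and 10 fell, where 17.2% of all tested genes rose and 26.1% fell. The list median log2 change was -0.50, beside -0.22 over all tested genes. The list median was -0.21 without control replicate 5 and -0.72 without starved replicate 4. Over single libraries left out the counts ran from 7 to 8 higher and from 9 to 11 lower. The count of 10 includes BIRC5, named after its values were seen, whose call (limma adjusted p = 0.0472) was lost under most alternatives, and with TMM or quantile scaling 9 fell. CDKN1A, which encodes p21 and is activated by KLF4 and KLF6, rose to 176 ± 29.4 CPM in starved libraries, against 14.2 ± 5.98 CPM in control libraries. LAMA3, a laminin chain gene, rose to 571 ± 29.7 CPM in starved libraries, against 176 ± 21.0 CPM in control libraries. ODC1, the first enzyme of polyamine synthesis, which KLF4 is known to repress, rose to 1736 ± 55.6 CPM in starved libraries, against 90.3 ± 21.2 CPM in control libraries. KRT19, a ductal keratin, fell to 616 ± 47.7 CPM in starved libraries, against 1578 ± 56.9 CPM in control libraries. Targets that are activated and targets that are repressed are pooled in this list, so its counts carry no direction for the factors.

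**Figure D4:**
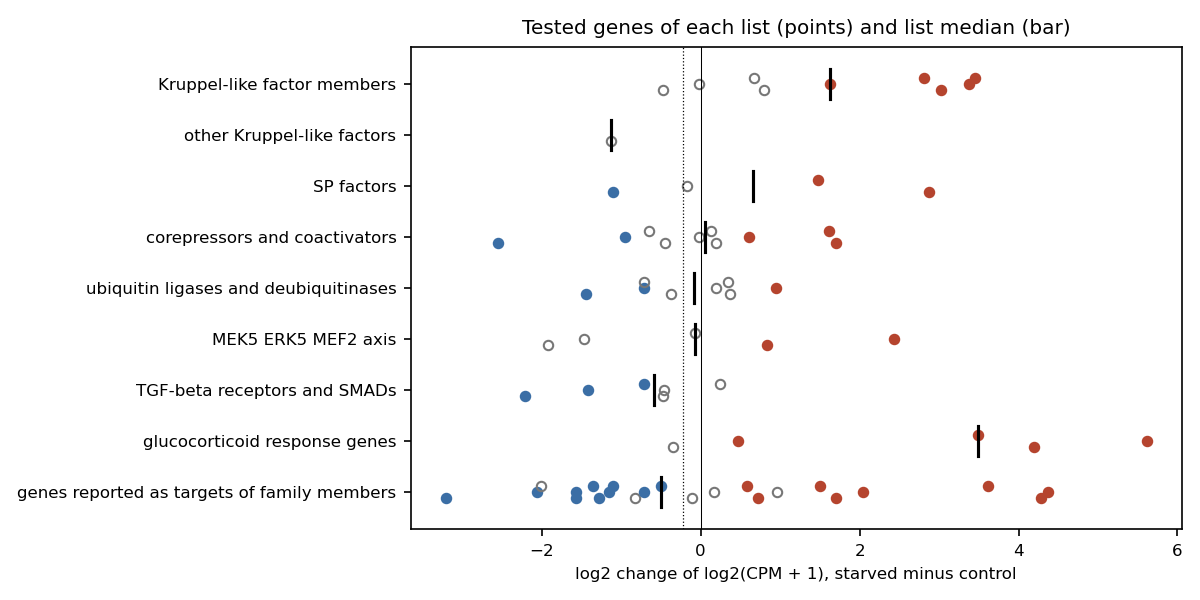
Log2 change (starved minus control) of every tested gene in the member list and the 8 other lists; filled red points are called higher, filled blue called lower, open points not called, bars are list medians and the dotted line is the median of all tested genes. The glucocorticoid and member lists have medians of 3.49 (2.00 at a pseudocount of 5) and 1.63, and the target list spreads to both sides.

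The genes with profiles most like those of the members were sought among the 7005 genes that averaged 20 CPM or more, by Pearson correlation of log2(CPM + 1) over the 10 libraries. Because the groups differ, such values mostly record the group difference, and all values of a library share its depth. KLF6 was most like SNHG5 (r = 0.9995), UPP1 (0.999) and GADD45B (0.997). KLF10 was most like ODC1 (0.994) and SPAG9 (0.994), and KLF5 was most like HSPA5 (0.996), SNAI2 (0.995), which encodes the EMT factor Slug, and ANXA5 (0.995). KLF7 was most like SEPT10 (0.988), IRF2BP2 (0.979) and PTPRE (0.979). KLF4 was most like ZNF274 (0.986), GJB5 (0.972) and ZNF75A (0.972). For KLF13 and KLF3, which did not pass the test, the highest values were lower, from 0.919 to 0.928 with ITGB5, TSEN34 and MSH3 for KLF13 and from 0.886 to 0.896 with NCAPG2, TMEM192 and SEPW1 for KLF3.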

How the data were processed

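Per the labels' protocols, total RNA was isolated with a PureLink kit and the 3' libraries were QIAseq UPX. The deposited values are CPM, which the authors scaled to a sum of 1000000 per library. The build is hg19, per the submitters' processing notes, and no source used here names the aligner, counter or annotation, or says how strand and molecular identifiers were used. Dividing each column by its smallest value above 0 gave whole counts for 100% of values above 0 (relative tolerance 1e-06). Libraries were grouped by their labels.

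Genes averaging 5 CPM or more (11202) were tested on log2(CPM + 1) with limma-trend, without covariates, in limma 3.58.1 under R 4.3.3. A log2 change is on that scale, and for low genes with libraries at or near 0 it can be smaller or larger than the change in mean level (KLF4 was 3.38 in limma and 2.91 in edgeR). On the recovered counts edgeR 4.0.16 (quasi-likelihood) called 5356 genes (47.8%) and DESeq2 1.42.0 called 4424 genes. Other alternatives were pseudocounts of 0.5 and 5, quantile, TMM and median-of-ratios scaling, dropping the filter or raising it to 20 CPM, a replicate block and leaving out libraries. Pairs of members were compared by exact permutation (scipy 1.17.1). The script was tested on simulated counts. Intervals of log2 changes are from limma and intervals of pair differences from permutation, both over libraries. Intervals of pooled ratios, and floors, cover counting error only.

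The members, lists and pairs were chosen with earlier results of these data known. Named genes are all 10 members, every other Kruppel-like or SP factor with a count, the 4 tested genes with the smallest p of each other list, and the 3 genes most like each member of at least 20 CPM. One gene that this rule names is not reported here. Protein sequences were not used here.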

Additional observations from a re-analysis of the deposited data

Results flagged for a closer look

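In 4 of 20 groups of 5 libraries, 1 per member and condition, a single library lay far from the other 4 by the ratio of its gap to the range of the group. Chance marks about 1 in 20 groups of continuous values, which does not apply to the KLF9 groups, where a single library with any count is marked by construction. KLF7 was 228 CPM in starved replicate 5, with the next highest starved library at 146 CPM. KLF3 was 70.5 CPM in control replicate 1, read from 10 counts, with the next lowest control library at 137 CPM. For KLF9 the marked libraries were the 1 library of each group with any count, starved replicate 1 at 3.37 CPM (2 counts) and control replicate 1 at 7.05 CPM (1 count).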

How the results depend on the processing

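KLF4, KLF5, KLF6, KLF7 and KLF10 kept their direction and stayed called in every alternative run, with log2 changes of 2.56 to 3.73, 1.56 to 1.72, 3.33 to 3.63, 2.76 to 3.37 and 2.66 to 2.95. Under each alternative 5 members were called higher and 0 lower. Over all genes the calls ran from 1637 to 2483 higher and from 2174 to 3127 lower. Quantile scaling moved the median log2 change of all genes to -0.016, against -0.22. KLF3, not called in any, turned to 0.071 with TMM, 0.068 with median-of-ratios scaling and 0.010 with edgeR, and ran from -0.23 to 0.055 without single libraries; the cause was not tested.

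Among the pairs, the KLF10 over KLF11 difference was 2.38 and the KLF6 over KLF7 difference 0.67 at a pseudocount of 5, both then called. At that pseudocount the log2 change was 2.73 for KLF4 and 1.61 for KLF5, against 3.38 and 1.63 in the main run. The size of the KLF4 over KLF5 difference therefore depends on the pseudocount. Without control replicates 1 and 2 together KLF4 over KLF5 (1.06) and KLF2 over KLF4 (-2.40) were not called, with the smallest exact p then 0.0357. After adjustment over the 5 pairs that p passes only if nearly all pairs reach it. The missing calls in that run therefore do not show a dependence on those libraries. Without single libraries the differences ran from 1.83 to 2.85 for KLF10 over KLF11, from -0.077 to 0.96 for KLF9 over KLF13, from 0.97 to 2.07 for KLF4 over KLF5, from -2.90 to -1.86 for KLF2 over KLF4 and from 0.20 to 0.59 for KLF6 over KLF7.

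Same-numbered libraries did not deviate together (correlations of -0.016 to 0.023 over tested genes, and 1 of 10 libraries correlated best with its own number), so the replicate numbers were not taken as a pairing. With a replicate block 1915 genes were called higher and 2886 lower, and the called members were the same 5. With a replicate block the pair tests, whose smallest p is then 0.0625, gave the same differences of 1.75 for KLF4 over KLF5 and -2.58 for KLF2 over KLF4, not called (adjusted exact p = 0.156 each).

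Depth limits KLF2, KLF9 and KLF11, read from at most 14 counts per group.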
